A study of Bos taurus with 4 samples.

Results

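The immediate early factors FOS, FOSL2, JUN, ATF3, EGR1 and KLF6, together with IER5 and ETV4, were followed in the inner cell mass (ICM) of bovine blastocysts cultured with or without an inhibitor of the MAPK pathway. These 8 genes were chosen by their symbol, and every probe that the array's annotation gives to one of them was used. They had 22 probes, out of 43653 probes on the array and 12545 genes with a name. FOS, FOSL2, JUN, EGR1 and IER5 had 3 probes each, KLF6 had 4, ETV4 had 2 and ATF3 had 1.

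Embryos were produced in vitro from Bos taurus oocytes, moved to fresh medium on day 5 and collected as blastocysts on day 9. From day 5 the medium of the MAPK-inhibited group (icm-ERK-inhibited) held PD0325901, which blocks MEK, the kinase that activates ERK, and the medium of the control group (icm-control) held its solvent DMSO. ICMs were cut from the trophectoderm by hand and pooled per group, so an ICM sample is a pool of many embryos and can hold some trophectoderm. Each group had 2 arrays, a and b, and on every array the ICM sample competed with the same pool of whole blastocysts, with the ICM sample in Cy3 on the a arrays and in Cy5 on the b arrays. The study calls its replicates biological, while the labels name no separate cultures. A p-value here reflects how far the difference within a and that within b disagree, with a variance partly borrowed from all probes. It does not measure the spread between the pooled samples of a group. The labels give no genotype or sex.

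Immediate early genes are the first genes that a cell transcribes after a signal, without the need for new protein. Growth factors such as FGF switch on RAS, RAF, MEK and ERK, and active ERK phosphorylates ternary complex factors such as ELK1, which with SRF drive FOS, EGR1 and related promoters. FOS and JUN proteins pair to form AP-1, ATF3 can join JUN in such pairs, EGR1 and KLF6 bind GC-rich promoters as zinc finger factors, and ETV4 is an ETS factor that follows FGF signalling in many embryonic tissues. In the mouse ICM, FGF and ERK direct cells to the hypoblast and away from the epiblast.

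The log2 ratio of ICM over pool is the quantity used throughout, and a difference is the ratio in MAPK-inhibited ICM minus that in control ICM. None of the 22 probes passed a Benjamini-Hochberg adjusted p of 0.05 in limma, a linear model fitted over all probes, and 0% of all 43653 probes did. One EGR1 probe stood far below the others in MAPK-inhibited ICM, with a difference of -1.62 on the log2 scale, or 3.06-fold, while the brighter EGR1 probe differed by -0.07. In the brightest probe of each gene, the differences of KLF6, FOS and ATF3 were -0.33, -0.30 and -0.21, and those of IER5 and FOSL2 were 0.35 and 0.24. At an unadjusted p under 0.05, 4 of the 22 probes were lower and 1 was higher, against 4.63% and 5.5% of all probes (2022 lower, 2403 higher). Both MAPK-inhibited arrays lay below both control arrays at 8 of the 22 probes and above them at 2, against 18.3% and 17.2% of all probes. With 2 arrays a group, an exact permutation test of a single probe cannot go below p = 0.333.

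**Figure D1:**
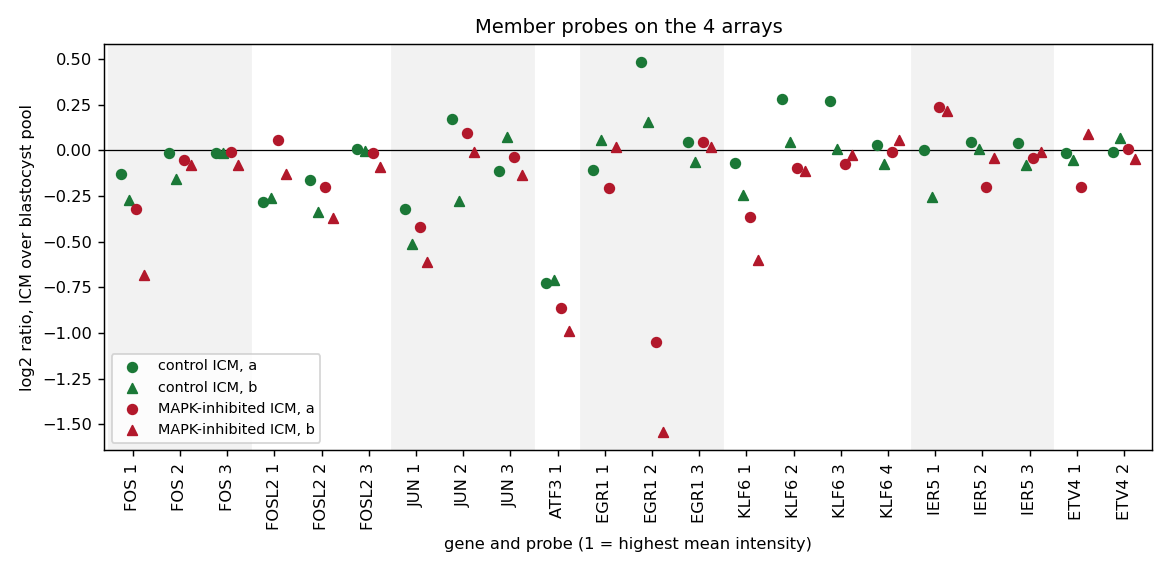
Log2 ratio of the ICM sample over the blastocyst pool (vertical axis) for each of the 22 probes (horizontal axis, by gene, probe 1 being the brightest), with 1 point per array, control ICM in green, MAPK-inhibited ICM in red, circles for a and triangles for b. EGR1 probe 2 is the one with a wide gap, from 0.48 and 0.16 in control ICM to -1.05 and -1.54 in MAPK-inhibited ICM, and ATF3 is below 0 on all 4 arrays.

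The arrays differed in brightness and in the evenness of their spots. The median signal of the ICM channel was 167 and 175 in control ICM and 110 and 133 in MAPK-inhibited ICM, and negative control spots lay at 24.3 to 26.9. Spots whose pixel SD exceeded 0.5 of their mean, here called uneven, made up 0.22% and 0.10% of probes on the control arrays, 34.2% on MAPK-inhibited a and 10.3% on MAPK-inhibited b. Of the 22 probes, 9 had an uneven spot on MAPK-inhibited a, 4 on MAPK-inhibited b and 0 on a control array. The ICM channel was above background on all 4 arrays for 17 of the 22, and the brightest probe of each of the 8 genes was among them. The number of arrays limits the precision of all differences.

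Among the FOS and JUN genes, FOS was read best by probe BTAA000682. Its ICM over pool log2 ratio was -0.13 and -0.27 in control ICM (a and b) and -0.32 and -0.68 in MAPK-inhibited ICM. The signals behind these ratios were 1908 and 1539 in control ICM and 1042 and 569 in MAPK-inhibited ICM, beside 1863, 1992, 1949 and 924 for the pool on the same arrays. FOS was thus lower in both MAPK-inhibited samples than in either control sample, and below the pool on all 4 arrays. The difference was -0.30 with an SE of 0.09, an unadjusted p of 0.0296 and an adjusted p of 0.434 in limma. It was -0.19 within a and -0.41 within b, where the MAPK-inhibited spot was uneven, and whether this plays a part was not tested. After median centring it was -0.49, but all probes of log2 intensity 10 or more then had a median difference of -0.17. With 1 array left out the FOS difference ran from -0.48 (without MAPK-inhibited a) to -0.12 (without MAPK-inhibited b). The other FOS probes, BTAA018344 and BTAA025716, had differences of 0.02 and -0.03, and their signals lay between 21.4 and 102 in both channels.

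FOSL2 encodes another FOS protein, which forms AP-1 with JUN. Its brightest probe, BTAA007716, had ratios of -0.28 and -0.26 in control ICM and 0.06 and -0.13 in MAPK-inhibited ICM. Its signals were low, at 156 and 166 in control ICM and 77.6 and 143 in MAPK-inhibited ICM. Here the MAPK-inhibited samples were the higher ones, the opposite order to FOS. The difference was 0.24 with an SE of 0.09 (unadjusted p = 0.0555, adjusted p = 0.509, limma), 0.34 within a, where the spot was uneven, and 0.13 within b. It was 0.14 without MAPK-inhibited a and 0.11 with the mean of the local background. The remaining FOSL2 probes differed by -0.03 and -0.06.

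JUN, the partner of FOS in AP-1, had its brightest probe in BTAA035836, with ratios of -0.32 and -0.51 in control ICM and -0.42 and -0.61 in MAPK-inhibited ICM. Signals were 3989 and 3498 in control ICM and 2673 and 2771 in MAPK-inhibited ICM, and none of these spots was uneven. By this probe JUN lay below the pool on all 4 arrays, and the groups overlapped, since MAPK-inhibited a was above control b. Within a and within b the difference was -0.10 each time, and the fitted difference was -0.10 with an SE of 0.07 (adjusted p = 0.731, limma). It was -0.28 after median centring, which shifted bright probes downward in general, and -0.20 to 0.00 with 1 array left out. A dimmer JUN probe, BTAA013537, had ratios of 0.17 and -0.28 in control ICM and 0.10 and -0.01 in MAPK-inhibited ICM. It differed by 0.10 with an SE of 0.11, from -0.07 within a to 0.27 within b, and the dimmest, BTAA025715, by -0.07.

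Relatives of FOS and JUN were read from a list of FOS, JUN, MAF and BATF genes, of which 9 were measured. FOS, FOSL2 and JUN themselves are among these and count in the figures that follow. In the brightest probe of each gene, 6 were lower and 3 higher, also after median centring, with a median of -0.14 beside 0.01 over all 12545 genes. After adjustment 0 of them passed, and at an unadjusted p under 0.05 there were 4 lower, FOS being 1 of them, and 1 higher. This stands against 5.45% and 8.77% of the brightest probes of all genes. MAFF, a small MAF protein that lacks an activation domain, had the largest difference of the list, -0.59 with an SE of 0.09, from -0.43 and -0.57 in control ICM to -1.14 and -1.06 in MAPK-inhibited ICM. JUNB differed by -0.37 (SE 0.08), MAFG by -0.22, FOSB by -0.14 and BATF by 0.03, while MAF, a large MAF factor, differed by 0.30. Another probe differed by 0.03 for MAFF and by 0.00 for MAF. JUNB, MAFF and MAFG, like FOS, were lower within a and within b.

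ATF3, a stress-responsive repressor of the ATF and CREB family, had 1 probe, BTAA000544. Its ratio was -0.73 and -0.71 in control ICM and -0.86 and -0.99 in MAPK-inhibited ICM. Signals of the control samples were 5745 and 6074 and those of the MAPK-inhibited samples 3389 and 4061, beside 9222, 9430, 9940 and 7122 for the pool on the same arrays. ATF3 was therefore lower in the ICM sample than in whole blastocysts on all 4 arrays, and lowest in the MAPK-inhibited samples. The groups did not overlap, and no ATF3 spot was uneven. The difference was -0.21 with an SE of 0.08, an unadjusted p of 0.0623 and an adjusted p of 0.525 in limma, and was -0.13 within a and -0.28 within b. After median centring it was -0.40, where all probes of log2 intensity 10 or more had a median difference of -0.17. In a bulk sample such as an ICM pool, fewer cells that express a gene and less transcript per cell cannot be told apart.

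Of the 11 measured ATF and CREB genes, 6 were higher and 5 lower, a split that turned to 3 higher and 8 lower after median centring. Their median difference was 0.01, the same as over all genes, and 0 passed after adjustment. The 1 with an unadjusted p under 0.05 was CREB1, the cAMP-responsive factor, at 0.25, although another CREB1 probe differed by -0.40. Over all genes 8.77% were higher and 5.45% lower at that threshold. ATF6, which responds to unfolded protein in the endoplasmic reticulum, differed by -0.21, and DDIT3, another stress-induced member, by -0.17. DDIT3 shared with ATF3 ratios below the pool on all 4 arrays, at -0.49 and -0.63 in control ICM and -0.68 and -0.79 in MAPK-inhibited ICM.

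EGR1, a zinc finger factor and a direct readout of ERK in many cells, was the gene whose probes disagreed. The brightest, BTAA016233, had ratios of -0.11 and 0.05 in control ICM and -0.21 and 0.02 in MAPK-inhibited ICM. Its signals were 1323 and 1547 in control ICM and 879 and 1410 in MAPK-inhibited ICM. By this probe EGR1 was close to the level of the pool everywhere, the groups overlapped, and the difference was -0.07 with an SE of 0.07 (adjusted p = 0.833, limma).

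The second EGR1 probe, BTAA007498, had ratios of 0.48 and 0.16 in control ICM and -1.05 and -1.54 in MAPK-inhibited ICM. Its ICM signals were 2023 and 1558 in control ICM and 177 and 335 in MAPK-inhibited ICM, and its pool signals were 1268, 1494, 617 and 1027 on the arrays of control a, control b, MAPK-inhibited a and MAPK-inhibited b. This probe read EGR1 above the pool in both control samples and well below it in both MAPK-inhibited samples, and the groups lay farther apart than the samples within either. The difference was -1.62 with an SE of 0.08, an unadjusted p of 4.69e-05 and an adjusted p of 0.266 in limma, and ranked 12 from the lowest among all 43653 differences and 7 by p. It was -1.53 within a, where the MAPK-inhibited spot was uneven, and -1.70 within b, where no spot of this probe was uneven.

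The call for this probe turned on the processing. Without background correction its adjusted p was 0.0107, and it was the 1 of the 22 probes to pass, against 0.0985% of all probes (43 probes). On the log2 ratios deposited by the authors its adjusted p was 0.000605, again as the 1 of 22 to pass, against 0.731% of all probes (319 probes). Over the other settings its adjusted p lay between 0.0514 and 1.00, and its difference ran from -1.16 with the mean of the local background to -1.86 without MAPK-inhibited replicate a. It was negative under every setting in which the probe was kept.

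The third EGR1 probe, BTAA032899, gave signals of 42.2 to 62.8 in the ICM channel and a difference of 0.04. Between the brighter pair, the ratio of the second probe exceeded that of the first by 0.59 and 0.10 on the control arrays and fell short of it on the MAPK-inhibited arrays, with values of -0.85 and -1.56. Both probes carry the EGR1 symbol in the annotation, and where each lies in the transcript is not known here. Averaged over the 3 probes the EGR1 difference was -0.55.

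**Figure D2:**
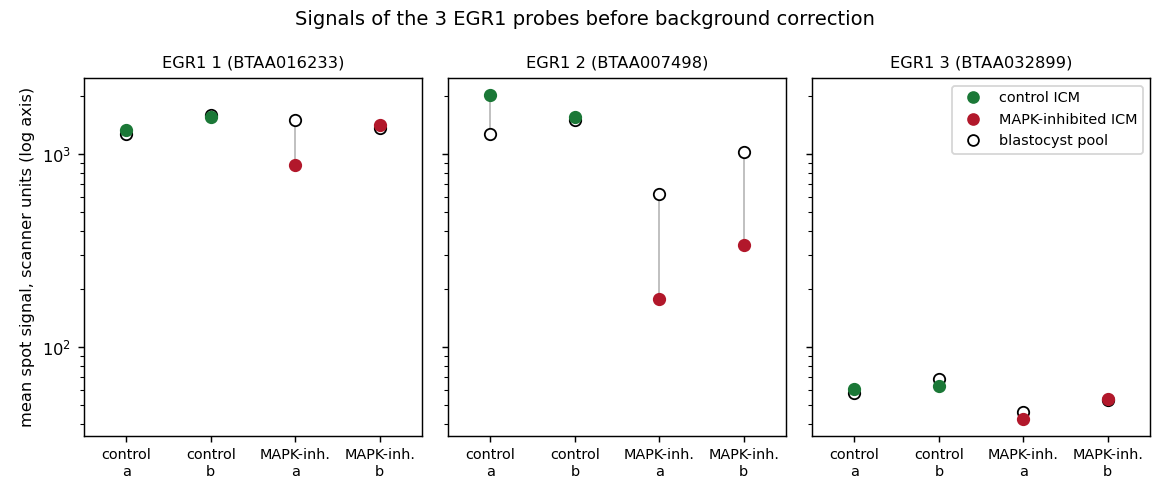
Mean spot signal in scanner units on a log axis (vertical) for the 3 EGR1 probes (panels) on each array (horizontal), with filled points for the ICM sample, open points for the blastocyst pool and a grey line joining both channels of a spot. In the middle panel the MAPK-inhibited samples lie at 177 and 335, below their pool at 617 and 1027, whereas the left panel has no such gap on array b.

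Of the other EGR and EGR-related genes, EGR3, a close relative of EGR1, differed by -0.02 and WT1, a zinc finger factor with a related binding site, by 0.08. NAB1, a corepressor that binds EGR proteins, was the 1 gene of the 5 with an unadjusted p under 0.05, at -0.31 with an SE of 0.09 (adjusted p = 0.413, limma). Over all genes 5.45% were lower and 8.77% higher at that threshold. Another NAB1 probe differed by 0.07, and NAB2, its relative, by -0.03. In the list, EGR1 included, 4 genes were lower and 1 higher, with a median of -0.03 and 0 called after adjustment.

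KLF6, a zinc finger factor of the Krüppel-like family induced by growth factors and injury, was read best by BTAA011973, with ratios of -0.07 and -0.25 in control ICM and -0.37 and -0.60 in MAPK-inhibited ICM. The signals were 10394 and 8707 in control ICM and 2048 and 5346 in MAPK-inhibited ICM, with the pool at 10876, 9588, 4022 and 7067 on the same arrays. Both MAPK-inhibited samples were below both control samples, and the pool signal of MAPK-inhibited a, whose spot was uneven, was also low. The difference was -0.33 with an SE of 0.07, an unadjusted p of 0.0111 and an adjusted p of 0.361 in limma, -0.30 within a and -0.35 within b, and ran from -0.44 to -0.21 with 1 array left out.

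Further KLF6 probes gave the same order of groups. BTAA032103 had ratios of 0.28 and 0.05 in control ICM and -0.10 and -0.11 in MAPK-inhibited ICM, and differed by -0.27 with an SE of 0.09 (unadjusted p = 0.0406, adjusted p = 0.470, limma), or by -0.61 with the mean of the local background. BTAA003741 had ratios of 0.27 and 0.01 in control ICM and -0.08 and -0.02 in MAPK-inhibited ICM and differed by -0.19. Each of these also had 1 uneven spot, on MAPK-inhibited a and b respectively, and its part was not tested. The dim probe BTAA040117 differed by 0.04. KLF6 was the 1 gene of the 8 in which 3 probes put both MAPK-inhibited samples below both controls.

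Of 12 measured KLF genes, 6 were higher and 6 lower, or 4 and 8 after median centring, with a median of 0.00 and 0 called after adjustment. The 2 with an unadjusted p under 0.05, both lower, were KLF6 and KLF4, against 5.45% of all genes lower and 8.77% higher. KLF4, which sustains naive pluripotency in mouse embryonic stem cells, differed by -0.38 with an SE of 0.08. KLF9 differed by 0.13, and KLF5 by -0.30, with 0.05 within a and -0.65 within b, and by 0.22 in another probe.

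IER5, an immediate early response protein that binds heat shock factor HSF1, was the gene of the 8 with the highest difference. Its probe BTAA000698 had ratios of 0.00 and -0.26 in control ICM and 0.24 and 0.22 in MAPK-inhibited ICM. Signals were 5041 and 4288 in control ICM and 3778 and 2778 in MAPK-inhibited ICM, against 4705, 5122, 4990 and 2249 for the pool on the same arrays. In MAPK-inhibited ICM alone did IER5 stand above the pool on both arrays of a group. The difference was 0.35 with an SE of 0.09, an unadjusted p of 0.0194 and an adjusted p of 0.396 in limma, 0.24 within a and 0.47 within b, where the spot was uneven. With 1 array left out it ran from 0.23 to 0.48. It was 0.15 after median centring, where all probes of log2 intensity 10 or more had a median difference of -0.17. The second IER5 probe, BTAA035675, went the other way, with ratios of 0.05 and 0.01 in control ICM and -0.20 and -0.04 in MAPK-inhibited ICM and a difference of -0.15 (SE 0.09), and the third differed by 0.00.

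IER2, which shares a domain with IER5, and IER3, an anti-apoptotic protein that shares only the name, were also higher in their brightest probe. IER3 had ratios of -0.31 and -0.24 in control ICM and -0.11 and 0.06 in MAPK-inhibited ICM, a difference of 0.25 with an SE of 0.07. The difference of IER2 was 0.35, but 0.02 within a and 0.67 within b. IER5L, the closest relative of IER5, differed by -0.10. In this list of 4 genes, 3 were higher and 1 lower under median centring as well, and 0 passed after adjustment. At an unadjusted p under 0.05 there were 2 higher, IER5 itself and IER3, and 0 lower, against 8.77% and 5.45% of all genes.

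ETV4, an ETS factor of the PEA3 group, was read best by BTAA003273, with ratios of -0.02 and -0.05 in control ICM and -0.20 and 0.09 in MAPK-inhibited ICM. Signals were 464 and 460 in control ICM and 288 and 310 in MAPK-inhibited ICM. The arrays of MAPK-inhibited ICM lay on either side of the controls. The difference was -0.02 with an SE of 0.11 (adjusted p = 0.973, limma), -0.18 within a and 0.15 within b, and its sign changed with the spot summary and with the background setting. The second ETV4 probe was dim and differed by -0.05. ETV1, the other PEA3 gene measured, had 1 probe and differed by -0.15.

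**Figure D3:**
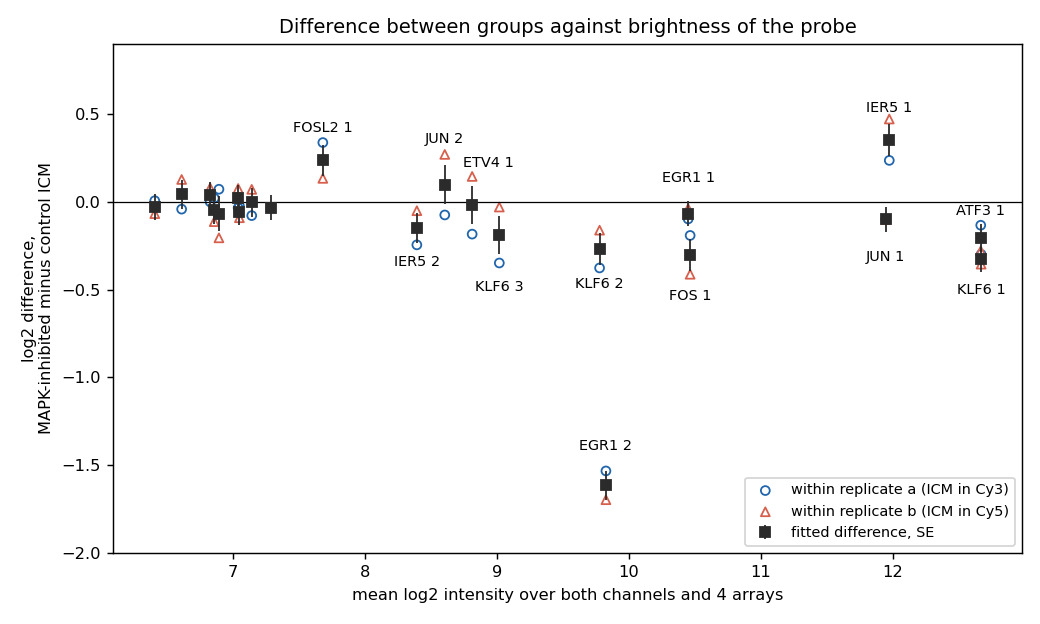
Log2 difference between MAPK-inhibited and control ICM (vertical axis) of the 22 probes against their mean log2 intensity over both channels and 4 arrays (horizontal axis), with black squares and bars for the fitted difference and its SE, blue circles for array pair a and red triangles for pair b. Dim probes crowd around 0 and EGR1 probe 2 stands alone at -1.62.

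Over the brightest probe of each of the 8 genes, 6 were lower and 2 higher, with a median of -0.08 against 0.01 for all 12545 genes, of which 48.1% were lower. Ranked from the lowest difference, KLF6 was gene 446, FOS 534, ATF3 1079, JUN 2711 and EGR1 3586 of 12545, and from the highest, IER5 was gene 700 and FOSL2 1435. By their brightest probes FOS, JUN, ATF3 and KLF6 lay below the pool on all 4 arrays, as did 15.8% of all genes. By dimmer probes, JUN (BTAA013537) was above the pool on control a, and KLF6 (BTAA032103 and BTAA003741) on both control arrays. Within a and within b the sign of the difference was the same for 14 of the 22 probes. The same share over all probes was not computed, and most genes hold several of the 22, so nothing is concluded from this count. The 9 probes of log2 intensity under 8 other than a gene's brightest had signals of 21.4 to 104 and differences of -0.07 to 0.04.

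Against the pool, ATF3 had the lowest mean ratio in control ICM, -0.72 ± 0.01 (SD, n = 2), followed by JUN at -0.42 ± 0.14, FOSL2 at -0.27 ± 0.01, FOS at -0.20 ± 0.10, KLF6 at -0.16 ± 0.13, IER5 at -0.13 ± 0.18, ETV4 at -0.04 ± 0.03 and EGR1 at -0.03 ± 0.12. From FOSL2 to EGR1 each pair of neighbours in this order differed by less than the larger of their SDs. In MAPK-inhibited ICM the order was ATF3 at -0.92 ± 0.09, JUN at -0.52 ± 0.14, FOS at -0.50 ± 0.26, KLF6 at -0.48 ± 0.16, EGR1 at -0.09 ± 0.16, ETV4 at -0.06 ± 0.21, FOSL2 at -0.03 ± 0.13 and IER5 at 0.23 ± 0.01. JUN, FOS and KLF6 lay within their SDs there, as did EGR1, ETV4 and FOSL2, and ATF3 and IER5 held the ends of the order. These ratios are those of the brightest probe of each gene. They compare each gene with itself in the pool and say nothing of which gene had more transcript.

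**Figure D4:**
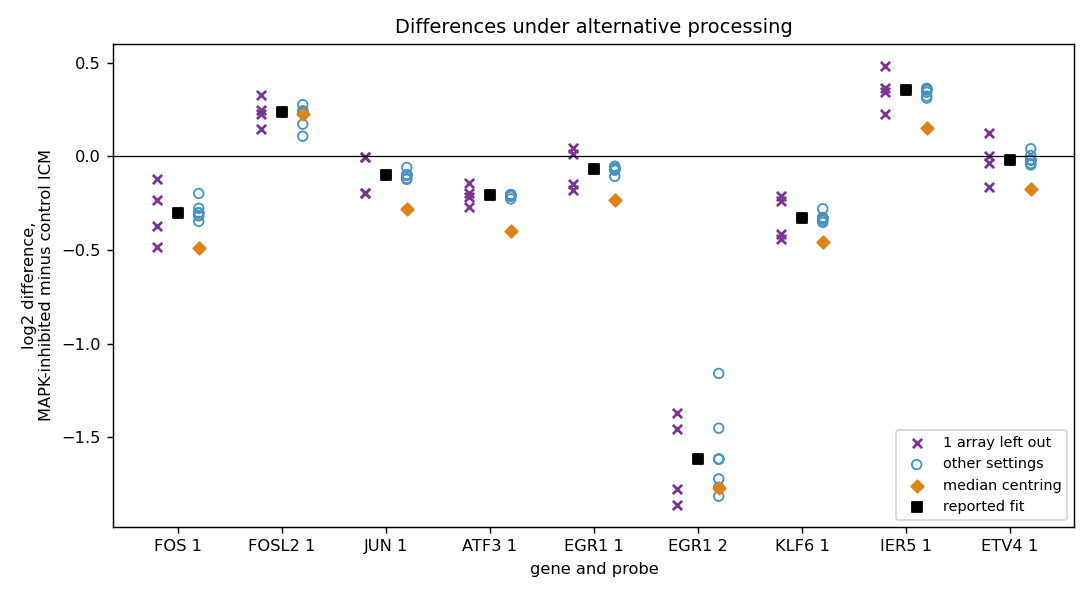
Log2 difference between MAPK-inhibited and control ICM (vertical axis) for the brightest probe of each of the 8 genes and for EGR1 probe 2 (horizontal axis), with black squares for the reported fit, purple crosses for fits with 1 array left out, orange diamonds for median centring and blue circles for the other settings. KLF6, ATF3 and FOS stay below 0 and IER5 and FOSL2 above it, while ETV4 and EGR1 probe 1 cross it.

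The upstream factors were measured in part. Of the list of SRF and its partners 5 genes were read, SRF itself not among them. Of these, 4 were lower and 1 higher, with a median of -0.12 and 0 called after adjustment. ELK1, the ternary complex factor named above, differed by -0.08, ELK3 by -0.13, ELK4 by 0.02 and MRTFB, an actin-regulated coactivator of SRF, by -0.12. FHL2, a LIM protein that binds SRF, differed by -0.26 with an SE of 0.08. It was the 1 with an unadjusted p under 0.05, against 5.45% of all genes lower and 8.77% higher.

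Other immediate early genes moved in both directions. Of 22 measured, 9 were higher and 13 lower, 0 passed after adjustment, and at an unadjusted p under 0.05 there were 5 higher and 1 lower, against 8.77% and 5.45% of all genes, with a median of -0.02. CCN2 and CCN1, matricellular proteins induced by YAP and by SRF, differed by 0.58 (SE 0.12) and 0.36 (SE 0.07), the small GTPase RHOB by 0.41 (SE 0.10) and the stress sensor GADD45B by 0.33 (SE 0.08), although a second GADD45B probe differed by -0.44. A second RHOB probe differed by 0.03, and the second probes of CCN2 and CCN1 by 0.30 and 0.53. ZFP36L1, which destabilises AU-rich transcripts, was the lower one at -0.37 (SE 0.12), with another of its probes at 0.00. It was named here after its value was seen.

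Feedback regulators of ERK, which ERK signalling itself induces, were read as the other output of the pathway. Of 12 measured, 9 were lower and 3 higher, with a median of -0.11, 0 called after adjustment, and 3 lower and 0 higher at an unadjusted p under 0.05, against 5.45% and 8.77% of all genes. These were SPRY2 at -0.68 (SE 0.14), DUSP4 at -0.61 (SE 0.08) and SPRED1 at -0.46 (SE 0.08), with DUSP5 next at -0.14. Without background correction these probes differed by -0.71, -0.94, -0.48 and -0.43, in the same order. Another probe differed by -0.49 for SPRY2, -0.03 for DUSP4 and -0.002 for SPRED1. DUSP6, the cytoplasmic ERK phosphatase, had probes that disagreed as those of EGR1 did, with -0.01 in the brightest and -0.96 in another, and was named after these values were seen.

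**Figure D5:**
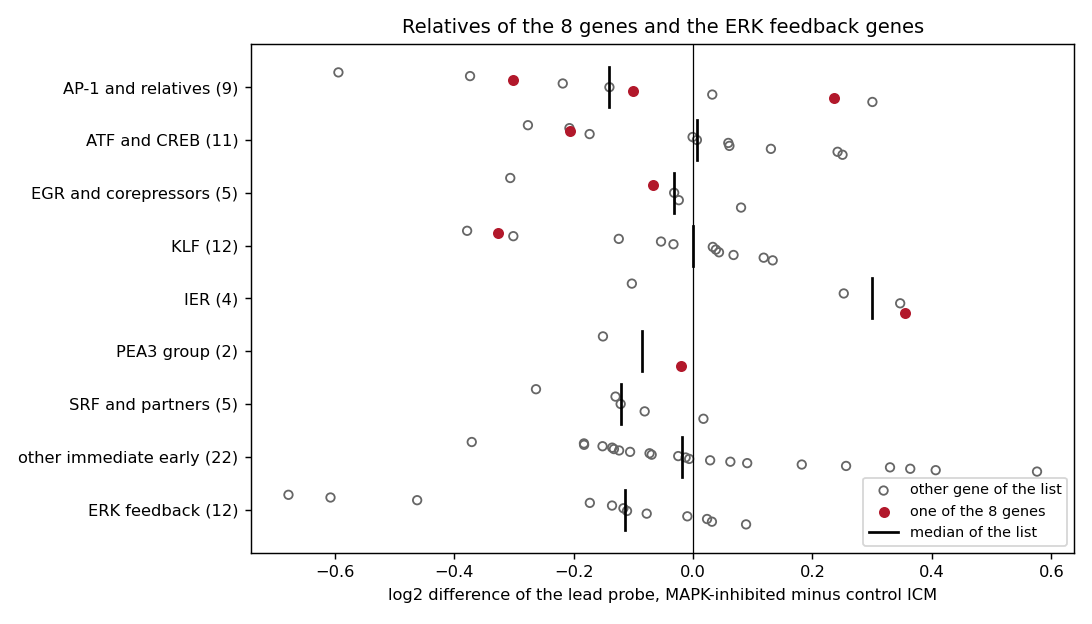
Log2 difference of the brightest probe of each gene, MAPK-inhibited minus control ICM (horizontal axis), by gene list (rows, with the number of genes measured), the 8 genes in red, other genes as open circles and the median of each list as a black bar. FOS, JUN and KLF6 lie left of 0 and IER5 and FOSL2 right of it, and the feedback regulators SPRY2, DUSP4 and SPRED1 reach -0.46 and below.

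Markers of cell types that an ICM sample can hold were read beside these values, and their part in them was not tested. Of 15 hypoblast genes 13 were lower and 2 higher, with FST at -1.27, NID1 at -1.01, GATA6 at -0.55 and LAMB1 at -0.47. Another probe differed by -0.44 for FST and by -0.15 for GATA6. The 2 higher were DAB2 at 0.20 and HNF4A at 0.05, while GATA4 differed by -0.04, and these were named after their values were seen. Of 9 pluripotency genes 6 were higher and 3 lower, or 3 and 6 after median centring, with NANOG at 1.34, SOX2 at 0.29, DPPA4 at 0.08 and ZIC2 at -0.58. NANOG and SOX2, which mark the epiblast, were above the pool on all 4 arrays. Of 14 trophectoderm genes 8 were lower and 6 higher, or 11 and 3 after median centring, with TFAP2A at 0.47, PAG8 at 0.30, ELF5 at -0.28 and GATA2 at -0.52. Signals summed over the trophectoderm list were 54930 and 96387 in control ICM, against 35518 and 90731 in MAPK-inhibited ICM. These sums are not normalized, and the median ICM signal of all probes was also lower in MAPK-inhibited ICM, at 110 and 133 against 167 and 175. They are therefore no measure of trophectoderm content. Of 12 cumulus and granulosa genes 8 were higher and 4 lower, or 6 and 6 after median centring, with FSHR at 0.55, CYP19A1 at 0.26, STAR at 0.20 and HSD3B1 at -0.41 (0.26 in another probe). Of 23 cell stress genes 14 were higher and 9 lower, or 6 and 17 after median centring, with SRXN1 at 0.48, MDM2 at 0.40, DNAJB9 at -0.41 and HSP90B1 at -0.47. In each of these lists 0 genes passed after adjustment. CDX2, POU5F1 and PDGFRA were not analysed here.

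Likeness of pattern was measured as the Euclidean distance over the 4 ratios, among 11495 genes above background on all arrays. IER5, which had both the largest difference and the highest mean ratio among the brightest probes, lay closest to MCPH1 at 0.0409, GLIPR2 at 0.0733 and NDUFA9 at 0.0798. For the second EGR1 probe, chosen after its values were seen, the closest were PKIB at 0.642, EFNA1 at 0.818 and RAI14 at 0.835, with differences of -1.07, -0.87 and -0.85. No gene came as close to that EGR1 probe as MCPH1 did to IER5. Only the brightest probe of each gene was searched, and the EGR1 probe had been picked with ratios far from 0. Its distances are therefore not comparable with those of IER5.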

How the data were processed

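Bovine ICM samples and a common blastocyst pool were hybridised on 4 dual-channel oligonucleotide arrays. The deposited scanner files give, per the file headers, the mean and median intensity of each spot and of its local background in both channels, and these signals appeared to be raw. RNA had been amplified in 2 rounds. A second table from the authors holds log2 ratios after loess and a dye correction per gene. Against the scanner log2 Cy5 over Cy3, its columns had slopes of -1.04 and -1.04 for the a arrays and 1.05 and 1.03 for the b arrays, so they run as ICM over pool. Their medians were 0.00 to 0.02, and how they were centred stays unknown.

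R 4.3.3 with limma 3.58.1 and Python 3.11.15 were used. Mean spot intensities were corrected by normexp (offset 50) with the median of the local background, since its mean took in bright pixels and reached 28589, and normalized by loess within arrays with 1567 control spots at weight 0. A fit of group and dye (1 residual and 2.90 prior degrees of freedom) was tested two-sided with Benjamini-Hochberg adjustment over 43653 probes at 0.05. Since the letter of a replicate fixes its dye, the dye term doubles as replicate block. The study fitted sample, array and dye effects. Deviations of arrays of the same letter correlated with r = 0.454. Above background means over the 95th percentile of 757 negative control spots of that array.

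The platform annotation named 1 gene for 27952 probes, several for 0 and none for 15701, and RefSeq updated 1831 of these symbols. A gene was represented by its brightest probe, whereas the study took the most 3′ one, which is not known here. No sequences or coordinates are given. All probes of the 8 genes are named, with every measured gene of the closest families and, from each other list, the 4 genes with the smallest unadjusted p. Others are said to be chosen after their values were seen. The members and lists were chosen with earlier results of these data known. Alternatives were the background, offset, centring, authors' values, the block, an intensity trend, filters on dim and uneven spots and leaving out each array. The mean over all probes of a gene was a further one, and spot medians were added after the data had been seen. The scripts were tested on simulated data.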

Additional observations from a re-analysis of the deposited data

How the results depend on the processing

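For the 13 brighter probes, 175 of 182 combinations of probe and alternative kept the direction of the difference, and 10 probes kept it in all. These combinations include the mean over all probes of a gene, for each gene with more than 1 probe. That mean contains the reported estimate and kept its direction each time. Of the 9 dim probes each reversed under at least 1 alternative (25 of 115 combinations). In both sets, the fit without the replicate block, the intensity trend and the filters leave a difference unchanged. Their combinations therefore kept direction by construction. Probes called numbered 0 in the reported fit, 43 without background correction, 319 on the authors' values and 0 to 101 with 1 array left out (42 without MAPK-inhibited replicate a, 101 without MAPK-inhibited replicate b), and 0 otherwise. Of the 22 probes 1 was called without background correction and 1 on the authors' values, each time EGR1 BTAA007498. Reversals touched probes near 0. ETV4 BTAA003273 was 0.0044 with the background mean, 0.0405 with spot medians (chosen after seeing the data) and -0.16 to 0.13 with 1 array left out. EGR1 BTAA016233 ran from -0.18 to 0.0437 with 1 array left out. JUN BTAA013537 was -0.048 after median centring and -0.13 to 0.32 with 1 array left out. The cause of these shifts was not tested. Without the replicate block 0 probes were called, and EGR1 BTAA007498 stayed at -1.62 with an adjusted p of 0.289 in limma. That probe was dropped by the filter on uneven spots, so it has no value there. Signals near the negative controls limit the dim probes, with a median difference of -0.03.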
